A study of Bos taurus with 47 samples.

Results

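The genes described here are 150 of the 27607 gene identifiers counted in bovine Longissimus muscle, chosen by measured stage means: their RNA was low in fetuses and high both at birth and at slaughter. The choice used CPM, each gene's count per 1e6 counts of its library. A gene was eligible where its mean at birth was at least 10 CPM and its birth and slaughter means lay within 2-fold of each other, which 5222 genes met. The 150 with the highest score were taken, the score being the log2 ratio of the smaller of the birth and slaughter means to the fetal mean after adding 0.5 CPM to both, and 5 identifiers were left out by the rule. The deposited tables do not pair identifiers with gene names, and 0 of the 150 could be matched to a symbol in the reference gene table used here, so the genes are given by Ensembl-style identifier and nothing is said of what each encodes.

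Crossbred Angus heifers (F0) gained weight at a low rate (LG, 0.28 kg per day) or a moderate rate (MG, 0.79 kg per day) for the first 84 days of gestation, and all were then kept as one group. Longissimus thoracis of their F1 heifer calves was sampled directly after calving and before suckling (8 LG and 8 MG libraries) and from F1 heifers at slaughter (8 LG and 7 MG libraries by the treatment labels, whereas the protocol text gives 7 LG and 8 MG). The F1 heifers were managed alike whatever the gain of their dams. Longissimus dorsi was dissected from F2 fetuses at day 84 of gestation (8 LG and 8 MG libraries), where LG and MG again name the F0 treatment. No library comes from an untreated herd, and fetal sex is not given in the labels. The 47 libraries held 13308433 to 32547565 counts each, and 23108 identifiers had at least 1 count. A library is named below by stage, group and the number in its label. The labels do not say what the numbers mark or that each is a separate animal, so the p-values measure only the spread between these libraries. Stage goes with generation for the fetuses, with the name of the muscle sampled and with the table deposited, and these cannot be told apart. Whole muscle was sequenced, so a gene carried by fewer cells and a gene with less RNA per cell cannot be told apart either. Because no identifier could be named, the labelled tissue was not checked against marker genes.

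Skeletal muscle of a fetus consists of forming and growing fibres among many dividing myoblasts and connective tissue cells, whereas the muscle of a newborn calf already consists mainly of differentiated, innervated fibres that must bear weight at once. Over this period developmental forms of contractile proteins give way to adult forms, and the machinery for calcium handling and energy supply is built up. In cattle the number of fibres is fixed before birth, and growth after birth proceeds by enlargement of existing fibres.

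Libraries of newborn and slaughtered F1 heifers gave a large part of their counts to these 150 genes, and fetal libraries a small part. Their summed share of the library was 1.72% ± 0.344 (SD, n = 16) in fetuses, with libraries from 1.205 to 2.31%. At birth the share was 23.6% ± 2.50 (SD, n = 16), ranging from 16.7 to 27.3%, and at slaughter it was 24.2% ± 1.63 (SD, n = 15), ranging from 21.8 to 26.4%. Every F1 library lay above every fetal library, and the birth and slaughter ranges overlapped. As the stage means chose the genes, these shares describe the set and are not tested.

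**Figure D1:**
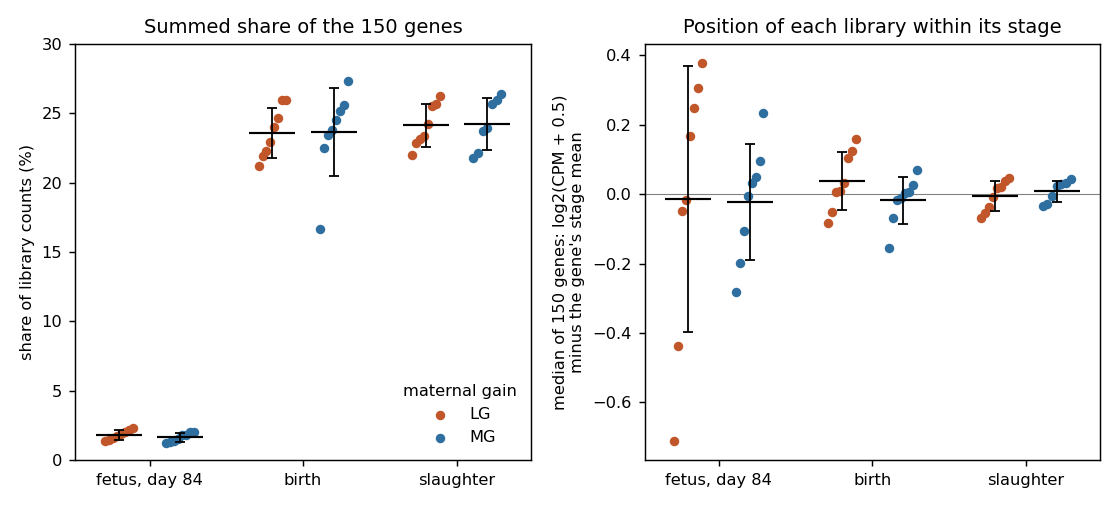
Left, the summed share of library counts (%, linear axis from 0) taken by the 150 genes, 1 point per library, with LG and MG beside each other in each stage and lines and bars for the mean and SD. Right, the median over the 150 genes of log2(CPM + 0.5) minus the gene's own stage mean, 1 point per library: fetal libraries spread from LG 41 at -0.71 to LG 29 at 0.38, and birth library MG 17 is the lowest of all F1 libraries on the left, at 16.7%.

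A few genes supplied most of this share. ENSBTAG00000046332, the gene with the most counts of the set, held 0.557% of fetal counts, 6.05% of those at birth and 5.76% of those at slaughter. The 10 genes with the most counts in a stage together held 1.36%, 16.8% and 16.7%. Without ENSBTAG00000046332 the set still held 1.16% of counts (fetus), 17.6% (birth) and 18.4% (slaughter). Of the 100 genes with the highest mean CPM in a stage, the set supplied 3 for the fetus, 29 for birth and 30 for slaughter. CPM is not divided by transcript length, so these ranks order shares of reads and not molecules.

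The label under which the set was proposed speaks of genes switched on, but most of them were already expressed in the fetus. Of the 150, 134 had a count in every one of the 16 fetal libraries. Only 17 had a fetal mean under 1 CPM, 56 lay between 1 and 10, 57 between 10 and 100, and 16 higher, not counting the 4 highest, at 1026 to 5572 CPM (the lowest of these ENSBTAG00000009707). In 2 genes the count was 0 in at least 8 fetal libraries. The set is therefore described here as low in fetal muscle and high in F1 muscle, a difference of degree for most of its genes. The median gene had stage means of 10.6 CPM (fetus), 183 (birth) and 190 (slaughter), against 49.6, 30.5 and 28.6 CPM for the 5072 eligible genes that were not chosen.

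**Figure D2:**
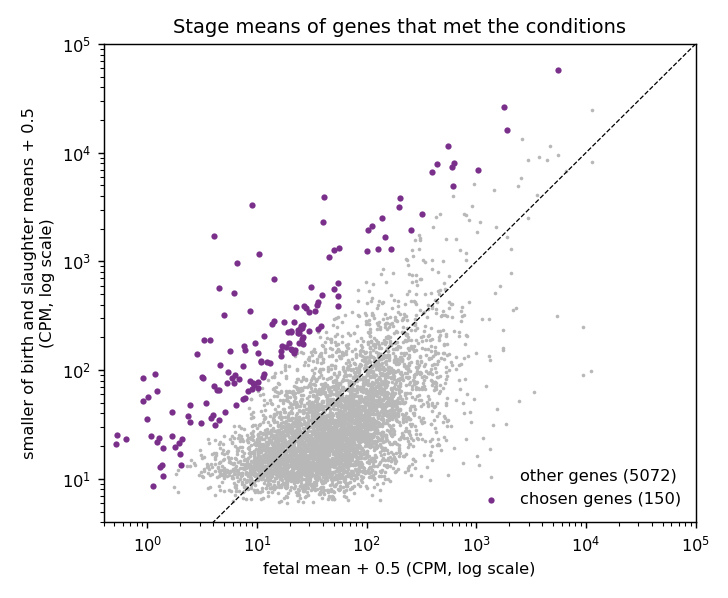
Fetal mean (x axis) against the smaller of the birth and slaughter means (y axis), both as CPM + 0.5 on log scales, for the 150 chosen genes and the other 5072 eligible genes, with a dashed line of equality. The chosen genes lie along the upper left edge over the whole range of fetal levels, from means under 1 CPM to 5572 CPM.

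The birth mean exceeded the fetal mean by 6.73-fold to 1030-fold over the 150 genes, with a median of 14.9-fold. For 13 genes the difference was over 100-fold and for 34 under 10-fold. The slaughter mean exceeded the fetal mean by 6.65-fold to 1186-fold, with a median of 16.3-fold, and 14 genes were over 100-fold. These folds depend on the scaling. With TMM scaling, which sets libraries to a common level over most genes, the medians were 26.4-fold and 31.3-fold, while the median over 13997 expressed genes moved from -0.86 to -0.09 in log2 for birth over fetus and from -0.99 to -0.14 for slaughter over fetus.

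The lowest score in the set was 2.72 and the highest 8.73. The gene ranked 150 had means of 38.1 CPM (fetus), 335 (birth) and 254 (slaughter). The first gene left outside had means of 82.3, 543 and 637 CPM, with a score that also rounds to 2.72. The edge of the set thus falls among genes with almost equal scores.

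ENSBTAG00000014069 had the highest score. Its level in fetuses was 3.56 CPM ± 2.91 (SD, n = 16), with a lowest, median and highest library of 0.461, 2.90 and 12.0 CPM. At birth it was 2954 CPM ± 843 (SD, n = 16; 1594, 2863 and 4667), and at slaughter 1725 CPM ± 1344 (SD, n = 15; 249.5, 1459 and 5430). The ranges of fetal and F1 libraries were far apart, whereas birth and slaughter overlapped, with slaughter LG 14 highest of all and slaughter MG 20 lowest of the F1 libraries. The gene varied more between slaughter libraries than between birth libraries.

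ENSBTAG00000021685, ranked after it, was steady in both F1 stages. Fetal libraries lay at 1.65, 5.82 and 33.4 CPM (lowest, median and highest), with a mean of 8.53 ± 8.63 (SD, n = 16). Birth libraries lay at 2647, 3261 and 3978 CPM, with a mean of 3305 ± 366 (SD, n = 16), and slaughter libraries at 3009, 3763 and 5141 CPM, with a mean of 3834 ± 553 (SD, n = 15). The F1 ranges overlapped each other and lay well above the fetal range.

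ENSBTAG00000046332, the gene with the most counts, was abundant at all stages. It had a mean of 5572 CPM ± 1865 (SD, n = 16) in fetuses, with libraries from 1868 to 8492 and a median of 5380. Its birth mean was 60511 CPM ± 13474 (SD, n = 16), with a median of 64091, and its slaughter mean was 57568 CPM ± 8652 (SD, n = 15), from 41610 to 74534. One birth library, MG 17, had 17023 CPM, and the next lowest MG library at birth had 58044. Even this library was above every fetal library.

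ENSBTAG00000012927, the gene with the next most counts over both F1 stages, had a fetal mean of 1797 CPM ± 355 (SD, n = 16). It reached 26287 CPM ± 4182 at birth (SD, n = 16; 18690 to 34892) and 28259 CPM ± 4530 at slaughter (SD, n = 15; 20574 to 36215). Its birth and slaughter ranges overlapped over most of their length, and no F1 library came near the fetal range.

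ENSBTAG00000053678, singled out after its values were seen, had no count in the most fetal libraries. It had 0 counts in 15 of 16 fetal libraries and 6 counts in fetus MG 20. Its means were 24.6 CPM ± 5.21 at birth (SD, n = 16) and 28.3 CPM ± 5.98 at slaughter (SD, n = 15). The resulting 1030-fold and 1186-fold differences, the largest of the set, rest on those 6 fetal counts and are known only roughly. ENSBTAG00000001021 also had 6 fetal counts in all, with 0 in 13 libraries and the lowest fetal mean of the set, 0.0205 CPM.

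For 141 of the 150 genes every F1 library was above every fetal library, beside 8.02% of the 5222 eligible genes. The rule chose for this contrast, so nothing is read from that count. In the other 9 genes at least 1 fetal library reached into the F1 range. The highest fetal library was LG 29 or LG 36 for 6 of these 9 and MG 20 for the other 3.

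The rule held the slaughter and birth means within 2-fold of each other, and its score used the smaller of them, so the ratio of these means is a description with no test. The slaughter mean was higher for 87 genes and lower for 63, with a median slaughter to birth ratio of 1.08. Of the set, 58.0% were higher at slaughter. The eligible genes not chosen had a median ratio of 0.898, with 38.9% higher at slaughter, and nothing is read from that difference. The means of 53 genes were within 1.2-fold, 33 genes were over 1.5-fold higher at slaughter, and 12 were over 1.5-fold higher at birth. The libraries of both stages overlapped for 140 genes. Of the 10 that did not overlap, 8 were higher at slaughter and 2 at birth. No such share over the other eligible genes is given, so nothing is read from these counts.

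**Figure D3:**
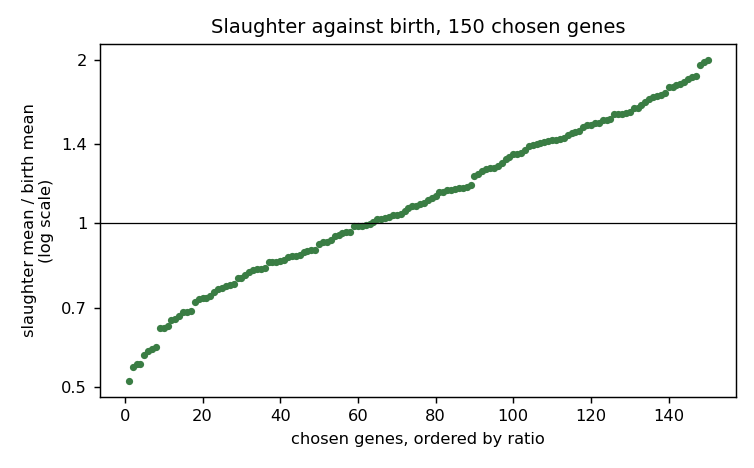
Ratio of the slaughter mean to the birth mean (log scale) for each of the 150 genes, ordered by the ratio, with a line at equality. The genes fill the allowed 2-fold band from 0.514 to 1.998 without a gap, and 87 lie above the line.

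The gene with the highest ratio, ENSBTAG00000014508, lay close to the limit of the rule at 1.998. Birth libraries had a lowest, median and highest value of 27.4, 63.2 and 136 CPM, with a mean of 64.4 ± 28.9 (SD, n = 16). Slaughter libraries had 76.5, 116 and 231 CPM, with a mean of 129 ± 43.4 (SD, n = 15). The ranges overlapped, with slaughter MG 31 highest.

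ENSBTAG00000039121 had almost as high a ratio, with no overlap between the stages. Its birth libraries lay at 165, 234 and 283 CPM, with a mean of 227 ± 38.7 (SD, n = 16), and its slaughter libraries at 419.6, 436 and 539 CPM, with a mean of 449.6 ± 37.3 (SD, n = 15), a ratio of 1.98. The fetal mean was 29.3 CPM ± 13.4 (SD, n = 16), below every birth library.

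The lowest ratio, 0.514, belonged to ENSBTAG00000033367, with 1 birth library far above the rest. Birth libraries lay at 21.6, 28.8 and 141 CPM, with a mean of 37.5 ± 29.2 (SD, n = 16), and slaughter libraries at 16.2, 18.5 and 24.4 CPM, with a mean of 19.3 ± 2.53 (SD, n = 15). Birth MG 17 was the highest library by a wide margin, birth LG 05 followed at 62.1 CPM, and the stages overlapped only at their edges.

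ENSBTAG00000016229 had a ratio of 0.544, with no single library far from the rest. Birth libraries lay at 96.5, 155 and 212 CPM, with a mean of 154 ± 33.3 (SD, n = 16), and slaughter libraries at 48.0, 83.7 and 129 CPM, with a mean of 83.8 ± 19.9 (SD, n = 15). Its fetal mean was 0.420 CPM ± 0.342 (SD, n = 16). The F1 ranges overlapped in part.

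The genes of the set varied more between libraries of one group than the other eligible genes did, in every stage. The spread was measured as the SD of log2(CPM + 0.5) within LG and MG groups. Its median was 0.64 (fetus), 0.33 (birth) and 0.29 (slaughter), against 0.41, 0.25 and 0.21 for the other eligible genes. An SD over 1 was found for 16.0% of the set among fetuses, 2.67% for birth and 3.33% for slaughter, against 7.87%, 0.158% and 0.197% of the others. In fetuses the set has lower counts by choice, and the part of counting error in its spread was not tested. At both F1 stages the set had the higher median level as well as the wider spread.

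The highest birth library exceeded the lowest by 2.32-fold for the median gene of the set, and the highest slaughter library by 2.02-fold. In fetuses this ratio was 6.88. A ratio over 10 occurred for 56 genes among fetuses, 6 for birth and 5 for slaughter, while 52 genes at birth and 73 at slaughter stayed under 2-fold across all libraries of the stage. The same ratios over the other eligible genes are not given, and the fetal counts of the set are low by choice. Nothing is therefore read from these ratios about the set.

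Some libraries were far from their stage across many of these genes. Fetus LG 41 was the lowest fetal library for 47 genes, and the median gene lay -0.71 from its stage mean on the log2 scale, against -0.35 for the other eligible genes in that library. Its counts were more concentrated, as 287 genes made up 50% of them, against 403 to 554 in the other fetal libraries. Fetus LG 29 lay at 0.38, with 117 genes above their stage mean, and fetus MG 20 was the highest fetal library for 47 genes and the lowest for 19. At birth, MG 17 was the lowest library for 33 genes and the highest for 17. Its counts were also less concentrated, as 169 genes made up 50% of them, against 61 to 109 in the other birth libraries. Slaughter LG 14 was the highest slaughter library for 22 genes and the lowest for 35. What sets these libraries apart was not tested.

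The widest spread in both F1 stages belonged to ENSBTAG00000052230, whose levels fell into separate high and low libraries. The SD of its log2 level within groups was 2.05 at birth and 1.76 at slaughter. At birth 10 libraries had 12.6 to 24.9 CPM, while LG 05, LG 11, LG 25 and MG 12 had 1.25 to 2.51 CPM and MG 13 and MG 31 had no count. At slaughter 12 libraries had 7.73 to 23.1 CPM, while LG 11 had 0.952, MG 31 had 0.251 (4 counts) and LG 41 had no count. No library of either stage lay between the low and the high values, and both LG and MG groups held libraries of each kind.

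Fetal libraries had 0 to 2.38 CPM of ENSBTAG00000052230, with no count in LG 11, LG 22, LG 41, MG 31 and MG 32. A count of 0 allows up to 3 counts in a library. Of the 6 label numbers present in the same group at birth and at slaughter, LG 11 and MG 31 were low in both stages, and LG 07, LG 14, LG 22 and MG 20 were high in both. Both low numbers also had no count among the fetuses. Of the other fetal libraries without a count, LG 41 shared its number with the slaughter library without a count, whereas LG 22 and MG 32 shared theirs with slaughter libraries at 7.98 and 7.91 CPM. Whether equal numbers mark one animal or family is not stated in the labels.

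ENSBTAG00000001864 also varied widely at birth, with an SD of 1.25 and libraries from 2.21 CPM in MG 15 to 66.2 CPM in MG 21. Its slaughter libraries lay closer together, from 13.9 to 42.2 CPM. ENSBTAG00000046512 varied widely at slaughter, with an SD of 1.31 and libraries from 213.9 CPM in LG 22 to 5042 CPM in LG 14. The birth libraries of that gene lay between 1505 and 3732 CPM. The wide spread of both genes was thus seen in 1 F1 stage and not to the same extent in the other, a difference that was not tested.

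F0 gain (LG against MG) was compared within each stage with edgeR's quasi-likelihood test over all genes of the stage, with Benjamini-Hochberg adjustment at 0.05. This contrast was not used to choose the genes. It concerns the gain of the dam for F1 libraries and that of the granddam for F2 fetuses. At birth the summed share of the set was 23.6% ± 1.82 in LG (SD, n = 8) and 23.6% ± 3.17 in MG (SD, n = 8). At slaughter it was 24.1% ± 1.54 in LG (SD, n = 8) and 24.2% ± 1.85 in MG (SD, n = 7), and in fetuses 1.81% ± 0.346 and 1.62% ± 0.335 (SD, n = 8 each). DESeq2 and limma voom called 0 genes of the set in each stage as well. The LG and MG ranges of the share overlapped in every stage, and the differences between their means were smaller than the SD within groups.

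No gene of the set passed the threshold at birth. All 150 were tested and 0 were called, beside 0% of all 12485 genes, and the lowest adjusted p by edgeR in the set was 0.985. At an unadjusted p under 0.05, 4 genes stood out, which is 2.67% of the set against 4.12% of all genes. That number rests on single libraries, as it was 2 without birth MG 17 and 15 without birth LG 05. The share of all genes in those fits is not given. Of these 4, 3 were higher in LG (1.27% of all genes were) and 1 was lower (2.86% of all genes). The fitted LG over MG difference was positive for 106 of the 150 genes, beside 48.3% of all genes. Its median log2 was 0.08 in the set against -0.01 over all genes. Without birth MG 17 the median was 0.03 and 85 genes were positive, and this lean was not tested.

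The gene with the smallest p at birth was ENSBTAG00000014069, the gene with the highest score. LG libraries had a lowest, median and highest value of 1778, 3411 and 4667 CPM, with a mean of 3477 ± 851 (SD, n = 8), and MG libraries 1594, 2498 and 2946 CPM, with a mean of 2430 ± 415 (SD, n = 8). The groups overlapped, and the fitted log2 difference was 0.54 (SE 0.16; adjusted p = 0.985 by edgeR). The same difference was -0.02 at slaughter and -0.47 in fetuses.

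ENSBTAG00000020060 was the gene with the smallest p among those lower in LG at birth. LG libraries had 1123, 1842 and 2553 CPM, with a mean of 1842 ± 442 (SD, n = 8), and MG libraries 1293, 2737 and 3374 CPM, with a mean of 2593 ± 662 (SD, n = 8). The ranges overlapped over most of their length, at a fitted log2 difference of -0.44 (SE 0.17). Next by p in each direction, ENSBTAG00000054349 had a mean of 14.5 CPM ± 2.07 over LG libraries against 11.6 ± 2.07 over MG libraries (SD, n = 8 each; log2 0.32, SE 0.14), and ENSBTAG00000003514 had 18.4 ± 3.80 against 23.3 ± 9.05 (SD, n = 8 each; log2 -0.28, or -0.19 without birth MG 17, its highest library at 41.6 CPM). The remaining gene with an unadjusted p under 0.05 at birth was ENSBTAG00000014143, named for slaughter below, with LG libraries at a mean of 322 CPM ± 161 and MG libraries at 192 ± 93.7 (SD, n = 8 each; log2 0.72). None of these 5 genes passed the adjusted threshold, and ENSBTAG00000003514 did not reach an unadjusted p under 0.05 either.

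At slaughter 0 of the 150 genes were called, beside 0% of 12577 genes, and 0 reached an unadjusted p under 0.05 against 1.83% of all genes (1.13% higher and 0.7% lower in LG). The median log2 difference of LG over MG was -0.02 in the set and 0.00 over all genes. The difference was positive for 64 of the 150 genes, beside 50.1% of all genes. ENSBTAG00000014143, with the smallest p among those higher in LG, had 395 CPM ± 207 in LG (SD, n = 8) and 272 ± 31.98 in MG (SD, n = 7). Its LG libraries spread from 202 CPM in LG 22 to 795 CPM in LG 14 and enclosed all MG libraries, at a fitted log2 difference of 0.54 (SE 0.26), or 0.31 without slaughter LG 14.

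ENSBTAG00000038286, with the smallest p among those lower in LG at slaughter, had 40.7 CPM ± 17.2 in LG (SD, n = 8) and 63.9 ± 37.5 in MG (SD, n = 7), a log2 difference of -0.58. The highest library of this gene was slaughter MG 39 at 131 CPM, without which the difference was -0.37. ENSBTAG00000019327 and ENSBTAG00000015690, next in each direction, had log2 differences of 0.39 (0.25 without slaughter LG 14) and -0.26. Both overlapped between the groups.

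In fetuses 141 of the 150 genes passed the filter on low counts. Of these, 0 were called, beside 0% of 14200 genes, and 5 had an unadjusted p under 0.05, all higher in LG. That is 3.55% of the tested genes of the set against 0.718% of all genes (0.387% higher and 0.331% lower in LG). Nothing is read from that share about the set, as these 5 genes stand in 1 run of table rows, described below. Without fetus LG 29 the number at an unadjusted p under 0.05 was 1, and without fetus MG 20 it was 9. The share of all genes in those fits is not given. The median log2 difference was -0.01 in the set against -0.04 over all genes. It was positive for 69 of the 141 tested genes of the set, beside 43.2% of all genes. The genes with the smallest p among those lower in LG were ENSBTAG00000026309 (log2 -0.41) and ENSBTAG00000009182 (log2 -0.61).

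**Figure D4:**
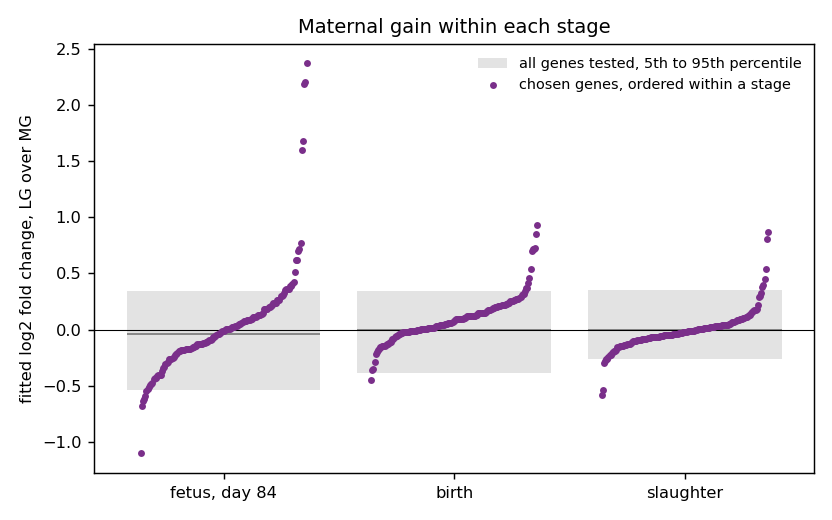
Fitted log2 fold change of LG over MG (y axis) in each stage for the chosen genes, ordered within the stage, over a grey band from the 5th to the 95th percentile of all genes tested. Most points lie inside the band in each stage, and the highest fetal points, up to 2.37, are the 5 genes with an unadjusted p under 0.05.

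Those 5 fetal genes were ENSBTAG00000052033, ENSBTAG00000054051, ENSBTAG00000053626, ENSBTAG00000053974 and ENSBTAG00000052348, the last 3 being named after their values were seen. They stand within 17 consecutive rows of the deposited fetal table. No other 20 rows of the table held more than 2 genes of the set, and the average was 0.109. The rows are not ordered by identifier, the basis of their order is not stated, and whether these genes share reads as near-identical copies was not tested. They are therefore not read as 5 separate observations, although the 3.55% given for fetuses counts each of them.

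The summed level of the 5 genes in fetuses had a lowest, median and highest value of 1.71, 104 and 469 CPM in LG, and 11.3, 33.9 and 60.9 CPM in MG. The LG range enclosed the MG range on both sides, with LG 41 lowest for all 5 genes and LG 29 highest for 4 of them. ENSBTAG00000052348 differed from the other 4, being highest in fetus LG 36 and, at slaughter, lowest in LG 22 rather than LG 41. For ENSBTAG00000052033 the fitted difference of LG over MG was 2.37 in log2 (SE 0.77, unadjusted p = 0.00649 by edgeR), and 1.73 without fetus LG 29. For ENSBTAG00000054051 it was 2.19 (SE 0.79, unadjusted p = 0.0122 by edgeR), and 1.52 without that library.

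At birth the same summed level was 345, 860 and 2541 CPM in LG and 329, 551 and 1304 CPM in MG. At slaughter it was 469, 807 and 1296 CPM in LG and 610, 939 and 1409 CPM in MG. The groups overlapped in both F1 stages, and at slaughter the median was the higher one in MG. The highest fetal library was above the lowest birth library of each group, and these 5 genes are among the 9 whose fetal and F1 ranges met.

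**Figure D5:**
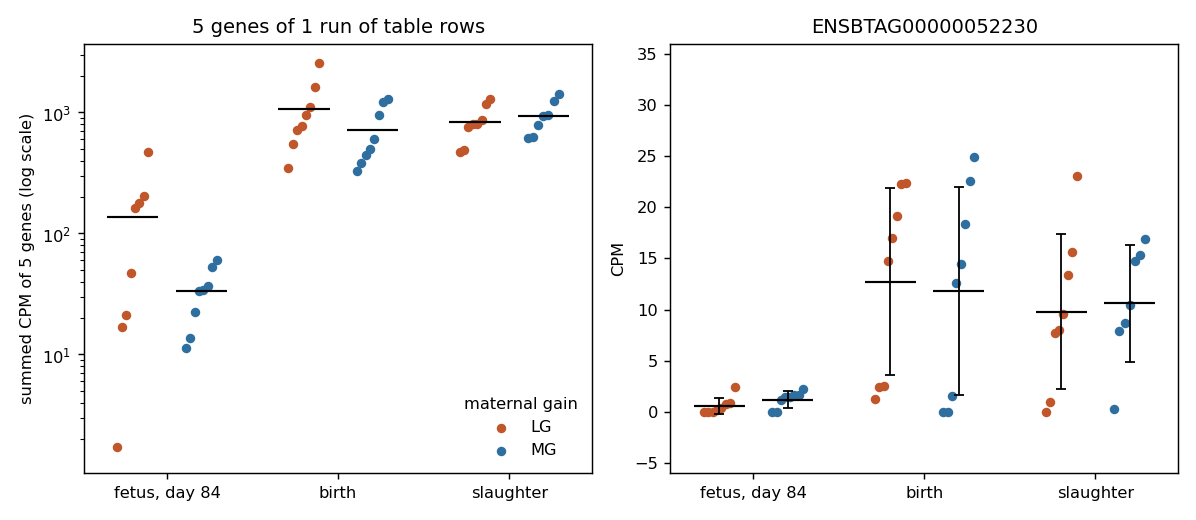
Left, summed CPM (log scale) of the 5 genes of 1 run of table rows in each library, with lines at the group means: fetal LG libraries run from 1.71 to 469 and fetal MG libraries from 11.3 to 60.9. Right, CPM of ENSBTAG00000052230 in each library with mean and SD (bars reaching below 0 only through the SD): F1 libraries lie either at 2.51 CPM or less, or at 7.73 CPM or more.

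The precision of the fitted LG over MG difference differed between stages. By limma voom the 95% interval of the LG over MG difference lay within 2-fold in both directions for 139 of 150 genes at birth (92.7%) and for 141 of 150 at slaughter (94.0%). In fetuses it did so for 78 of the 141 tested (55.3%). The corresponding shares of all genes were 90.9%, 89.8% and 67.4%. Within 1.5-fold the set had 93 genes at birth, 110 at slaughter and 27 in fetuses. These intervals are per gene and not adjusted, so they do not give the size of effect that the adjusted edgeR threshold would have called.

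Whether the effect of F0 gain differed between stages was tested as the difference of the LG over MG effects. The 3 differences were fitted in 1 model of all 47 libraries and 15264 genes. Comparisons with the fetus set an effect of the dam's gain against an effect of the granddam's gain. None of the 150 genes passed the adjusted threshold in any of these 3 comparisons, beside 0% of all genes in each. At an unadjusted p under 0.05 there were 0 genes for slaughter against birth (3.07% of all genes), 9 for birth against fetus (6.0% against 2.94%), and 10 for slaughter against fetus (6.67% against 2.23%). The last 2 comparisons share the fetal libraries. Their filter on low counts ran over all 47 libraries, so genes low in fetuses could pass it through the F1 libraries, where the rule chose them to be high. ENSBTAG00000053678 and ENSBTAG00000001021, with 6 fetal counts each, and ENSBTAG00000016229, with 125, are in both counts. All of them failed the filter in the fetal libraries alone. Nothing is therefore read from these shares about the set. All 5 genes of the run of rows are among the 10 for slaughter against fetus, and ENSBTAG00000052033 and ENSBTAG00000053626 are also among the 9 for birth against fetus.

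ENSBTAG00000016229 had the smallest p of the set in both comparisons with the fetus. In fetal LG libraries it lay at 0.215, 0.649 and 1.14 CPM (lowest, median and highest), with a mean of 0.647 ± 0.315 (SD, n = 8), and in fetal MG libraries at 0, 0.149 and 0.554 CPM, with a mean of 0.192 ± 0.182 (SD, n = 8). The groups overlapped, and all 16 fetal libraries together held only 125 counts of it. At birth and slaughter its LG over MG difference was -0.02 and -0.08 in log2.

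The difference of effects for ENSBTAG00000016229 was -1.77 in log2 for birth against fetus (SE 0.39; adjusted p = 0.329 by edgeR) and -1.84 for slaughter against fetus (SE 0.40; adjusted p = 0.403 by edgeR). DESeq2 gave -1.84 and -1.91 with adjusted p = 0.0351 and 0.0197, both under the threshold. The share of all genes that DESeq2 called in these comparisons is not given. The gene failed the filter on low counts in the fetal libraries alone. In 1 edgeR fit over all 47 libraries its fetal LG over MG difference was 1.75 (SE 0.34; adjusted p = 0.0359), 1 of 2 genes called (0.0131% of 15264), whereas without the filter in the fetal libraries alone it was 1.78 (SE 0.60; adjusted p = 1.00). The call thus depends on the model, and the gene is reported as not called.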

How the data were processed

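Per the labels' protocols, libraries were made from polyA RNA with a kit that does not mark strand and read from both ends at 150 bp, so genes that overlap on opposite strands cannot be told apart. The values are raw read counts per identifier as the authors deposited them, in 1 table of 27607 identifiers for each of the 3 stages. Per the submitters' processing notes, the tools included the aligner STAR 2.7.3a, edgeR 3.24.3 and, for read quality, MultiQC 1.9 and FastQC 0.11.8. For the annotation, the genome build and the program that counted reads, the entry is "not given in the sources used here". The header of the slaughter table lacks a cell for the identifiers, so the first library name was assigned to the first column of counts.

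The 150 genes, the tests and the alternatives were chosen with earlier results of these data known. Levels are CPM by column sum, described over libraries without a test between stages, since stage means chose the genes. LG and MG were compared in R 4.3.3 with edgeR 4.0.16 (filterByExpr, TMM scaling, robust quasi-likelihood test, Benjamini-Hochberg adjustment over all genes tested, threshold 0.05). Each stage was fitted apart, and the difference of effects between stages was fitted over all 47 libraries. Other settings tried were limma 3.58.1 voom, DESeq2 1.42.0 and its size factors in edgeR, no filter, 1 fit over all libraries, leaving out each library in turn and other settings of the rule. The edgeR fits were also run on simulated counts with known changes, whose rate of recovery is not given here. Over 161 pairs of libraries of 1 group, chi-square per degree of freedom was 23.2 or more, so none was merged. Library totals ran from 13308433 to 32547565 counts, at which 1 CPM stands for 13.3 to 32.5 counts.

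Most genes were named by rule: those with the highest scores, the most counts, the highest and lowest slaughter to birth ratios, the widest spread, and the smallest p in each direction for LG against MG. ENSBTAG00000017743 was named only after its values were seen beside those of the run of table rows. ENSBTAG00000053678, ENSBTAG00000053626, ENSBTAG00000053974 and ENSBTAG00000052348 were likewise named after their values were seen. As 0 of 27607 identifiers matched a symbol, the rule was narrowed to about 2 identifiers a direction, and the gene lists, marker checks and sequences were not used here.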

Additional observations from a re-analysis of the deposited data

Results flagged for a closer look

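Of 168 groups of values examined (27 named identifiers and the summed share, in 6 groups of libraries), 26 held a single library whose gap to the nearest other library of its group was large against the whole range of the group by Dixon's test. The rate of about 1 in 20 groups by chance holds for normally distributed values, a shape that was not tested for these CPM. Some genes were named for a wide spread or an extreme ratio, and others, among them ENSBTAG00000017743, after their values were seen. The genes of the run of table rows are not independent. The 26 groups are therefore not set against that rate.

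At birth, MG 17 had a summed share of 16.7% against 22.5% in the next MG library, 17023 CPM of ENSBTAG00000046332 against 58044, and 141 CPM of ENSBTAG00000033367 against 37.9. In the LG group at birth, LG 05 had 62.1 CPM of ENSBTAG00000033367 against 33.9 in the next library. LG 22 had 3732 CPM of ENSBTAG00000046512 against 2525, and 36.7 CPM of ENSBTAG00000053678 against 23.7. Single MG values also stood apart, as MG 21 had 392 CPM of ENSBTAG00000014143 against 247.5, and MG 15 had 162 CPM of ENSBTAG00000017743 against 76.5.

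Among fetuses, LG 29 was highest for 4 genes of the run of rows. It had 99.1 CPM of ENSBTAG00000052033 against 42.5 in the next LG library, 116 CPM of ENSBTAG00000054051 against 48.0, 121 CPM of ENSBTAG00000053626 against 57.0, and 120.2 CPM of ENSBTAG00000053974 against 49.5. The same library had 20.7 CPM of ENSBTAG00000021685 against 9.81, and LG 36 had 2.38 CPM of ENSBTAG00000052230 against 0.867. Fetus MG 20 had 47.03 CPM of ENSBTAG00000017743 against 2.66, 2.80 CPM of ENSBTAG00000033367 against 0.966, 1.78 CPM of ENSBTAG00000038286 against 0.837, and 0.382 CPM of ENSBTAG00000053678 against 0 in the other MG libraries.

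At slaughter, LG 14 had 5430 CPM of ENSBTAG00000014069 against 2119 in the next LG library. LG 36 had 592 CPM of ENSBTAG00000017743 against 261, and 179.9 CPM of ENSBTAG00000052348 against 60.4. LG 07 had 114 CPM of ENSBTAG00000026309 against 78.6, and LG 29 had 24.4 CPM of ENSBTAG00000033367 against 19.6. MG 31 had 231 CPM of ENSBTAG00000014508 against 150.1, 539 CPM of ENSBTAG00000039121 against 453, and 69.4 CPM of ENSBTAG00000026309, below the next lowest at 76.0.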

How the results depend on the processing

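The absence of calls in the set held in the comparisons of LG with MG and of their effects under every alternative run, with 3 exceptions that are all ENSBTAG00000016229: 1 gene was called in fetuses in 1 fit over all 47 libraries, and 1 with DESeq2 for each of birth against fetus and slaughter against fetus. Leaving out each library in turn gave 0 calls within each stage. Counts at an unadjusted p under 0.05 moved more: at birth from 2 without MG 17 to 15 without LG 05 (9 without each of MG 13, MG 21 and MG 37, 8 without MG 15, 7 without LG 10, LG 14 or LG 25, against 4), at slaughter from 0 to 4 (without LG 07), and in fetuses from 1 (without LG 29) to 9 (without MG 20). Other models gave 7 with DESeq2 at birth, 2 with DESeq2 at slaughter, and in fetuses 1 with limma voom, 8 with no filter and 15 in 1 fit over all 47 libraries, against 4, 0 and 5. For these counts, for the calls by DESeq2 and for the counts with a replicate block below, the share of all genes under the same setting is not given. Nothing is therefore read from them about the set. TMM scaling moved the mean over libraries of each library's median gene from 9.98 to 6.51 CPM in fetuses, from 175 to 211 at birth and from 187 to 237 at slaughter. Of the 150 genes, 105 were also chosen with means within 1.5-fold, 121 with a birth mean of at least 50 CPM, 136 by stage medians, 143 and 145 with pseudocounts of 2 and 0.1 CPM, 144 with TMM scaling, and 141 (without fetus MG 20) to 149 without 1 library. Same-numbered libraries of birth and slaughter correlated at 0.0316 to 0.194 over 6 pairs, with a mean of 0.0738 against -0.00185 for other pairs. With fetuses the correlations ran from -0.205 to 0.113 for birth and from -0.242 to 0.246 for slaughter. Whether equal numbers mark one animal is not stated, and the libraries were not treated as paired by edgeR. With the number as a replicate block in limma voom the set had 0 calls in each comparison of effects, and 0, 4 and 3 genes at an unadjusted p under 0.05, against 0, 5 and 3 by limma voom without it and 0, 9 and 10 by edgeR.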
